A study of Homo sapiens with 2 samples.

Results

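The melanocyte lineage genes described here are 10 genes, picked by name: MITF, SOX10, TYRP1, DCT, PMEL, MLANA, OCA2, GPR143, SLC45A2 and RAB27A. All 10 were found among the 18267 genes with counts in both libraries. They were divided by general knowledge into 8 genes used mainly in pigment cells and 2 genes, MITF and RAB27A, that many other cells use too. The study compared A375 cells made resistant to dacarbazine (DTIC), named DR, with wild-type cells, named WT, by RNA sequencing of 1 library of each. A375 is an established line from a human skin melanoma that is known to make little pigment, and the labels of both libraries, WT included, give the same 105 days of treatment with an agent spelled DITC, culture in DMEM with serum, and no replicate. Resistance was raised by long culture with DTIC, and no clone is named. The 2 count columns carry nearly the same name and neither says wild type, so that the libraries are called by their labels throughout and every direction between them rests on those labels.

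Melanocytes come from the neural crest and make melanin inside a lysosome-related organelle, the melanosome. SOX10 switches on MITF, the lineage's central transcription factor, and MITF binds short E-box motifs at the genes for melanosome fibres, melanin enzymes and transporters. RAB27A then ties ripe melanosomes to the motor that carries them along actin, and in immune and gland cells it serves secretion.

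Stretches before the starts of MITF, TYRP1, DCT and OCA2 that hold a motif searched for are shown first. Their letters can so be read beside the reads of each gene. RefSeq promoter windows (GRCh38.p14) were found for 7 of the 10 members, in 14 windows of 250 bases before a start. PMEL, SOX10 and SLC45A2 had none. Each sequence below is written 5′ to 3′ on the gene's strand and stops before the first base of any exon in GENCODE version 29. Capitals mark CATGTG or CACATG, its reverse complement, with the flanking T or A of TCATGTG or CACATGA where present, the letters of the M-box to which MITF binds, or, in MITF itself, the cyclic AMP response element TGACGTCA.
MITF, melanocyte start, chr3:69936342-69936586, plus strand: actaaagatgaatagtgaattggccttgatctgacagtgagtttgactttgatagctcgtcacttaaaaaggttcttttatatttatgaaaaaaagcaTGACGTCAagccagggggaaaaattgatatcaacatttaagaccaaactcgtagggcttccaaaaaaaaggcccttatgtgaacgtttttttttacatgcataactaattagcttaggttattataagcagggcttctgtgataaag
TYRP1, chr9:12693135-12693308, plus strand: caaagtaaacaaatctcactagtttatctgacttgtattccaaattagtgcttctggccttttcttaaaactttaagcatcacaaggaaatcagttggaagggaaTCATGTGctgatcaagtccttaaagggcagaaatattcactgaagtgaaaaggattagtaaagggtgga
DCT, chr13:94479683-94479932, minus strand: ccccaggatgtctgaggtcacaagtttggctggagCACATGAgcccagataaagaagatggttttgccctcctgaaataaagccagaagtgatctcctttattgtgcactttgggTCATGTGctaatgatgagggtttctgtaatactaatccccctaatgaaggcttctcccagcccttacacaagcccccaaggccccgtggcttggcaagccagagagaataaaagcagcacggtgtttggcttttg
OCA2, chr15:28099359-28099565, minus strand: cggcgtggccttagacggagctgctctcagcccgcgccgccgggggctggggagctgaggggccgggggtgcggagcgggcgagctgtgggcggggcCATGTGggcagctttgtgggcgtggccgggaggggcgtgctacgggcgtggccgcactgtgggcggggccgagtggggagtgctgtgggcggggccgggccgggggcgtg
The MITF window lies before the start of the melanocyte form, and its TGACGTCA begins 152 bases before that start. In TYRP1 the 7 letters TCATGTG begin 145 bases before the start, and in DCT they begin 135 bases before it, with CACATGA at 215. In OCA2 CATGTG, without the flanking T, begins 153 bases before the start. Counted over both strands and whole windows, CATGTG was present in 4 of the 14 member windows, 1 each of TYRP1, DCT, OCA2 and GPR143, and in 9.42% of all 35116 windows. The longer TCATGTG, which contains it, was present in those windows of TYRP1, DCT and GPR143, and in 2.52% of all windows. TGACGTCA was present in 1.65% of all windows and the related E-box CACGTG, which no member window held, in 6.34%. The windows of MLANA and RAB27A held none of these letters. A match is a description of the letters and no binding was measured.

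Reads were counted per gene and scaled to counts per 1000000 reads (CPM) of each library's total after TMM, a scaling that evens out the bulk of the genes between libraries, with exact 95% Poisson intervals of the reads in parentheses. The libraries held 54878348 reads (DR) and 35294662 reads (WT), so that 3 reads, taken as the floor, were worth 0.0540 and 0.0861 CPM. Of the 10 members, 7 had at least 10 reads over both libraries, the minimum for 16210 genes to be tested. SOX10, GPR143 and SLC45A2 did not. The intervals cover counting error only, since reads without molecular identifiers are not independent molecules, and with 1 library per group no p-value can be given.

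The 8 pigment cell genes were all below the median gene in both libraries, and MITF and RAB27A were both above it. The median over all genes tested was 19.97 CPM in the library labelled DR and 19.6 CPM in the library labelled WT. The 8 pigment cell genes together summed to 8.39 and 7.46 CPM, less than that 1 median gene. Their own median was 0.144 CPM in DR and 0.373 CPM in WT, and 4 of the 8 in DR and 2 of the 8 in WT were at or under 3 reads. MITF and RAB27A summed to 113.5 and 98.2 CPM. Per kb of gene length, the scale on which genes can be compared with each other, 9 of the 10 members were below the median of 6.46 (DR) and 6.40 (WT) CPM per kb, since MITF, with a listed length of 9497 bases, moved under it.

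**Figure D1:**
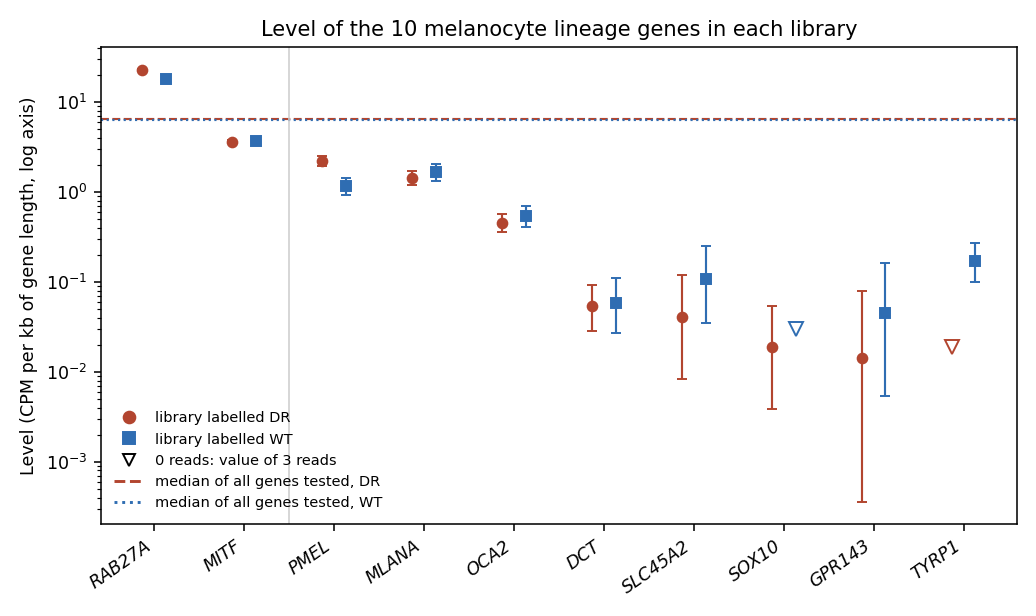
Level of each member in CPM per kb of gene length on a log axis, with 95% Poisson intervals of the reads, for the library labelled DR (circles) and the library labelled WT (squares). Dashed and dotted lines give the median of all genes tested, and open triangles stand for 3 reads where a library had 0. RAB27A alone lies above the median, and MITF lies under it, at 3.64 (DR) and 3.66 (WT) CPM per kb. The 8 pigment cell genes, right of the grey line, run from 2.21 CPM per kb down to 0.

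In order of level per kb, the library labelled DR gave RAB27A, MITF, PMEL, MLANA, OCA2, DCT, SLC45A2, SOX10, GPR143 and TYRP1. The first 5 stood apart from their neighbours beyond their counting intervals, from RAB27A at 22.7 to OCA2 at 0.456 CPM per kb. From DCT at 0.0535 downwards the intervals of neighbours overlapped. In the library labelled WT the order was RAB27A, MITF, MLANA, PMEL, OCA2, TYRP1, SLC45A2, DCT, GPR143 and SOX10. There the intervals of MLANA and PMEL overlapped, and so did those of neighbours from TYRP1 at 0.170 CPM per kb downwards, though those of TYRP1 and SOX10 did not.

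Of the 7 members tested, 0 were higher in DR and 0 were lower in DR by a log2 difference of at least 1, taken after adding a pseudocount of 0.5 CPM. Among all genes tested, 7.47% were higher and 4.16% lower by that measure. The median log2 difference of the 7 members was -0.05, against 0.01 over all genes tested. The members covered a range from -0.98 (TYRP1) to 0.80 (PMEL) on that scale.

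**Figure D2:**
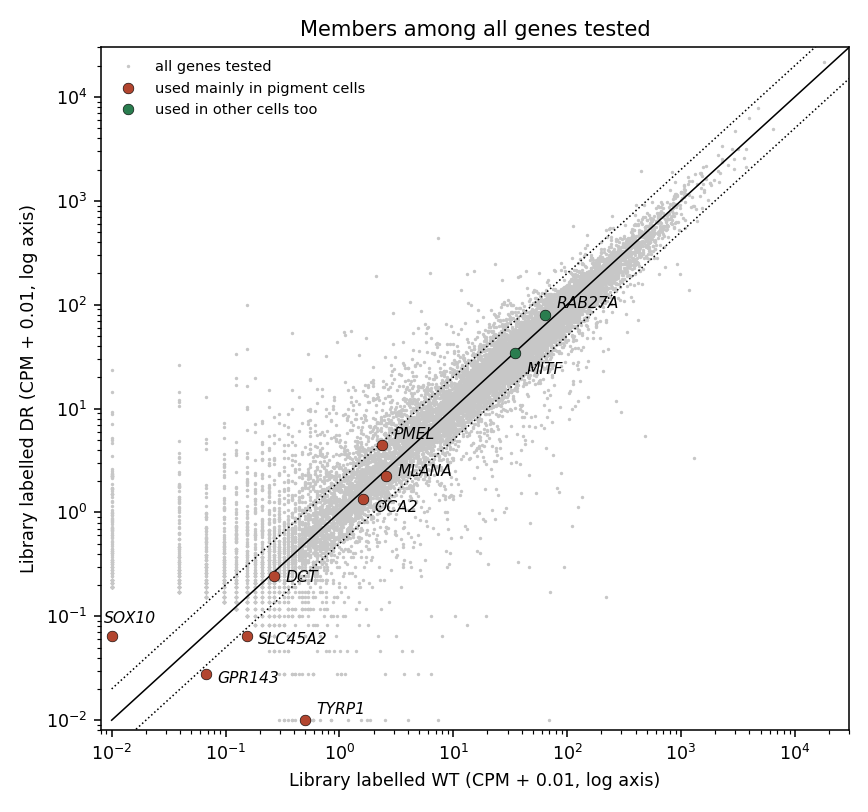
Level of each gene in the library labelled DR against the library labelled WT, in CPM + 0.01 on log axes, with the 16210 genes tested in grey, the pigment cell genes in red and MITF and RAB27A in green. The solid line marks equal levels and the dotted lines a 2-fold difference. The green genes lie in the dense middle of the cloud, and the red ones lie at its lower end, with SOX10, GPR143 and SLC45A2 under the minimum of 10 reads.

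MITF, the transcription factor at the top of the pigment programme, was the most evenly matched member. It had 1922 reads in DR and 1211 in WT, or 34.6 CPM (33.1 to 36.2) and 34.7 CPM (32.8 to 36.8). The ratio of DR to WT was 0.996, with a counting interval from 0.926 to 1.07, and its log2 difference of -0.01 became 0.03 when library totals replaced TMM. MITF stood at the 61.8 and 61.6 percentile of all genes tested by CPM, and at 40.8 and 41.5 per kb. GENCODE version 29 annotates 18 MITF transcripts with 15 different starts. The counts are per gene, so that the melanocyte form shown above and the forms of other cells were not told apart.

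SOX10, the neural crest factor that acts upstream of MITF, had 3 reads in DR and 0 in WT. Both values are at or under the floor of 3 reads, and no ratio is given. The SOX10 gene lies inside POLR2F, a subunit gene of RNA polymerases, which had 2419 and 1310 reads. Whether the libraries kept strand is not given in the sources used here, so that reads of overlapping genes may have been exchanged.

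Other regulators of the neural crest and of melanocytes were also low. Of 14 such genes, 12 were tested, 4 were higher in DR and 1 was lower, beside 7.47% and 4.16% of all genes tested, and the difference from the members was not tested. Their median level was 1.80 CPM in DR and 0.459 CPM in WT, and 0 of the 14 in DR and 1 of the 14 in WT were above the median gene. KIT, the receptor for stem cell factor on which melanoblasts depend, had 139 reads in DR and 3 in WT, a ratio of 29.1 with an interval from 9.74 to 142.7. TFAP2B, a relative of the neural crest factor TFAP2A, had 127 reads in DR and 0 in WT and was at least 26.6-fold higher in DR if 3 reads stand in for the 0, while the 95% counting interval of the ratio began at 21.3. ALX4, a homeobox factor, had 180 and 7 reads, a ratio of 16.1 (7.67 to 40.7). SOX2, a stem cell factor, had 891 and 136 reads, a ratio of 4.11 (3.43 to 4.96). LEF1, the nuclear partner of Wnt signalling, went the other way with 1088 and 1606 reads, a ratio of DR to WT of 0.425 (0.393 to 0.459). PAX3, which acts with SOX10 on MITF, had 8 and 1 reads and was not tested. It was named after its values were seen.

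Of MITF's own family, the 4 MiT/TFE factors that bind the same E-boxes, TFE3 had the highest level per kb. It measured 23.6 CPM per kb in DR and 31.6 in WT, beside 3.64 and 3.66 for MITF, 5.41 and 4.02 for TFEB, and 0.498 and 0.168 for TFEC. TFEC, which is known from macrophages, was the 1 family member past the fold, with 189 reads in DR and 40 in WT, a ratio of 2.96 (2.10 to 4.28). Known MITF targets that many cells use were spread around the median gene, with 8 of 16 above it in each library. Of these, 15 were tested, 2 were higher in DR and 1 was lower, beside 7.47% and 4.16% of all genes tested. TBX2, a repressor of senescence genes, had 188 reads in DR and 633 in WT, a ratio of DR to WT of 0.186 (0.158 to 0.220). BCL2A1, an inhibitor of cell death, had 40 and 2 reads, a ratio of 12.5 (3.25 to 107.2). MET, the receptor for hepatocyte growth factor, had 189 and 47 reads, a ratio of 2.52 (1.82 to 3.55). The highest levels on that list were those of SQSTM1, an autophagy receptor, at 159.2 and 123.8 CPM per kb.

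TYRP1 and DCT encode melanosomal enzymes that act late in the making of eumelanin, and both were close to absent. TYRP1 had 0 reads in DR and 17 in WT, or 0.488 CPM (0.284 to 0.781) in WT. It was at least 9.03-fold lower in DR if 3 reads stand in for the 0, while the 95% counting interval of the ratio of WT to DR began at 6.58. Its log2 difference of -0.98 lay just inside the limit of 1, and with a pseudocount of 0.1 CPM it became -2.55 and TYRP1 was called lower, as were 5.6% of all genes tested. Even in WT, TYRP1 stood at the 11.7 percentile per kb. DCT had 13 reads in DR and 9 in WT, or 0.234 CPM (0.125 to 0.400) and 0.258 CPM (0.118 to 0.490). Its ratio of 0.906 had an interval from 0.358 to 2.40, so that a 2-fold difference either way was not detectable at this depth. The windows of TYRP1, DCT and GPR143, which hold TCATGTG on either strand, thus belong to genes with at most 17 reads in a library.

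PMEL, which forms the fibres on which melanin is laid down, was the pigment cell gene with the most reads in DR. It had 248 reads in DR and 82 in WT, or 4.46 CPM (3.93 to 5.06) and 2.35 CPM (1.87 to 2.92). The intervals of the libraries did not overlap, and the ratio was 1.90 with an interval from 1.47 to 2.47. PMEL was the only pigment cell gene tested with a log2 difference above 0, at 0.80, and all 3 scalings gave it between 0.80 and 0.83. It still stood at the 30.3 and 25.8 percentile by CPM, with the median gene 4.47 times as high in DR and 8.34 times in WT. Beside PMEL lie CDK2, a cell cycle kinase with 4740 and 3092 reads, and DGKA, a lipid kinase with 785 and 336 reads. DGKA was higher in DR as well, at 14.1 against 9.64 CPM, while CDK2 was not, at 85.3 against 88.7 CPM. Exchange of reads between these genes was not tested.

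MLANA, a melanosome protein that works with PMEL and is the MART-1 antigen of melanoma, did not differ beyond counting error. It had 123 reads in DR and 89 in WT, or 2.21 CPM (1.84 to 2.64) and 2.55 CPM (2.05 to 3.14). The ratio was 0.867 (0.655 to 1.15). Its estimated counts were fractional, 122.8 and 89.1, as were those of MITF and RAB27A, and the sources used here do not say why. MLANA overlaps BRD10, which had 2195 and 1753 reads and whose part in MLANA's reads was not tested.

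The transporters and the receptor of the melanosome ranged from low to almost absent. OCA2, a chloride channel that sets the melanosome's acidity, had 75 reads in DR and 56 in WT, or 1.35 CPM (1.06 to 1.69) and 1.61 CPM (1.21 to 2.09). The ratio of 0.840 had an interval from 0.587 to 1.21. SLC45A2, a transporter needed for the same balance, had 3 and 5 reads, with a ratio of 0.376 and an interval from 0.0585 to 1.94. GPR143, the receptor that limits melanosome size, had 1 and 2 reads, which gives no ratio. For OCA2 and SLC45A2 the intervals include 1. That of OCA2 lies inside a 2-fold difference either way, while that of SLC45A2 reaches past a 2-fold lower level in DR.

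RAB27A, the small GTPase of melanosome and granule transport, was the highest member and the only one above the median gene on both scales. It had 4385 reads in DR and 2212 in WT, or 78.9 CPM (76.6 to 81.3) and 63.5 CPM (60.8 to 66.2), the 80.9 and 75.6 percentile. The ratio was 1.24 with an interval from 1.18 to 1.31, far inside a 2-fold difference. Per kb it was 10.3 times as high as PMEL in DR and 15.7 times in WT. PIGBOS1, which overlaps RAB27A, had 659 and 354 reads.

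**Figure D3:**
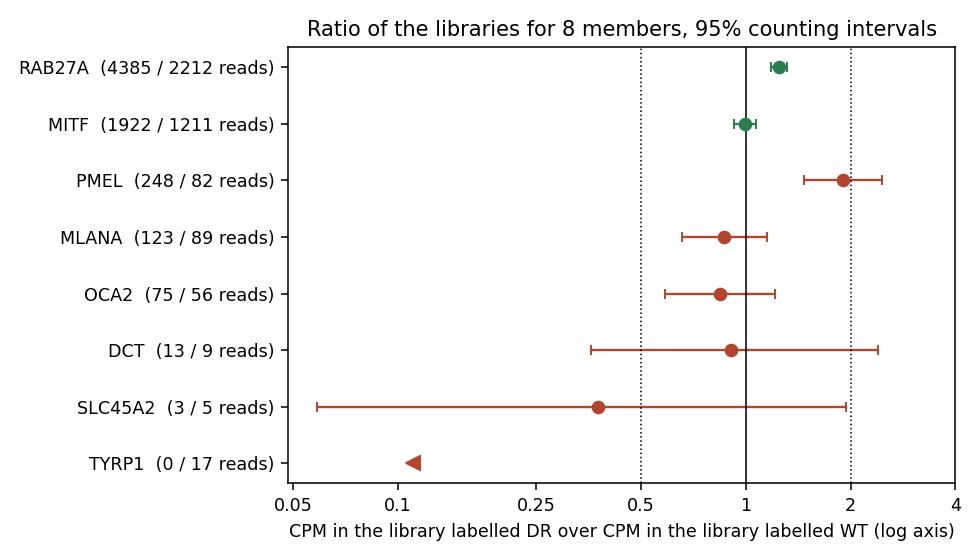
Ratio of CPM in the library labelled DR to CPM in the library labelled WT for 8 members on a log axis, with 95% Clopper-Pearson counting intervals and the reads of each library (DR / WT) beside the name. The triangle for TYRP1 marks the bound set by 3 reads, dotted lines mark a 2-fold difference, and SOX10 and GPR143 have no ratio. The intervals of RAB27A and PMEL lie above 1, that of TYRP1 lies below, and the others include 1.

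The genes for proteins that work with RAB27A ranged from a few reads to well above the median gene. Of 17 partners and secretory lysosome genes, all were tested, and 6 in DR and 7 in WT were above the median gene. Past the fold, 1 was higher in DR and 1 lower, beside 7.47% and 4.16% of all genes tested. MYO5A, the motor that carries melanosomes in pigment cells and other cargo elsewhere, had 42005 and 21510 reads and stood at 71.2 and 58.1 CPM per kb. MLPH, the linker that joins RAB27A to MYO5A on melanosomes, had 50 and 10 reads, or 0.263 and 0.0837 CPM per kb, and was named after its values were seen. SYTL2, a RAB27A effector of secretory cells, was the 1 partner past the fold upwards, with 552 reads in DR and 5 in WT, a ratio of 69.3 (29.5 to 214.2). MYRIP, a linker of RAB27A to myosins of secretory and retinal cells, was the 1 past it downwards, with 28 and 157 reads, a ratio of DR to WT of 0.112 (0.0720 to 0.168). RABGGTB, a subunit of the enzyme that adds the lipid tail to RAB proteins, was at 20.9 CPM per kb in DR and 29.2 in WT. The BLOC, AP-3 and HOPS genes, which sort cargo to melanosomes and to lysosomes of all cells, were mostly above the median gene. Of 25, 22 were above the median per kb in each library and 0 were past the fold. AP3D1, an AP-3 subunit, was at 57.2 and 66.7 CPM per kb.

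The pigment cell genes had in all 466 reads in DR and 260 in WT. The ratio of these sums, scaled by library, was 1.12 with a counting interval from 0.964 to 1.31. PMEL made up 53.2% of the reads in DR and 31.5% in WT, and without it the sums were 218 and 178 reads, with a ratio of 0.768 (0.628 to 0.942). The interval of the whole sum included 1, so that it showed no direction beyond counting error. PMEL was left out after its values were seen, and leaving out a gene with a higher ratio lowers the sum's ratio by construction. Of the genes left, TYRP1 had 0 reads in DR and 17 in WT. The intervals of MLANA, OCA2, DCT and SLC45A2 each included 1, and the sum without TYRP1 was not taken. PMEL, MLANA and OCA2 together held 95.7% and 87.3% of the reads of the 8 genes.

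Other genes of the melanosome and of pigment ranged from almost absent to high. Of 13 chosen, 12 had counts, and TYR, the gene for tyrosinase, was not found among the genes listed. Of the 12, 4 were above the median gene in each library. Of these 12, 11 were tested and 0 were past the fold, beside 7.47% higher and 4.16% lower of all genes tested. CD63, a tetraspanin of melanosomes and of endosomes in most cells, was the highest at 168.8 and 189.2 CPM per kb. ATP7A, the copper transporter that supplies melanin enzymes, was at 7.25 and 10.8, and TPCN2, an organelle channel, was at 5.93 and 7.66 CPM per kb. SLC24A5, an exchanger of the melanosome, had 1 and 0 reads, and APOE, a lipid carrier of many cells, had 13 and 16. Both were named after their values were seen. The annotation in the table showed the same spread. Of 98 genes with counts and the Gene Ontology term melanosome, 3 were members (MLANA, PMEL and RAB27A), and of the other 95, 74 were above the median gene in each library, with a median of 141.5 and 151.1 CPM. Of the 7 genes of the melanosome membrane, 5 were members (DCT, GPR143, OCA2, SLC45A2 and TYRP1) and all 5 were below the median gene. These terms were chosen after the annotation had been seen.

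Set beside markers of cell types, the pigment cell genes stood low in both libraries. No reference library of melanoma was compared, so that a level usual for the label is not given. Of 12 melanoma markers with counts, TYRP1 among them, 3 in DR and 4 in WT were above the median gene, with a median of 4.32 and 2.40 CPM. S100B, chosen for this list and for the Schwann cell list below, was not found among the genes listed. The highest were MCAM, an adhesion molecule, at 15.7 and 10.8 CPM per kb, SERPINE2, a protease inhibitor, at 16.2 and 9.72, and PRAME, a tumour antigen, at 7.09 and 9.37. CDH19, a cadherin of the Schwann cell lineage, was the 1 past the fold, with 364 reads in DR and 75 in WT, a ratio of 3.05 (2.37 to 3.96). Of 18 genes of dedifferentiated melanoma, 5 in DR and 6 in WT were above the median gene. Past the fold, 3 were higher in DR and 3 lower, beside 7.47% and 4.16% of all genes tested. Among them FN1, fibronectin, was at 594.3 and 781.4 CPM per kb, CAV1, caveolin, was at 56.0 and 55.3, and VIM, vimentin, was at 64.8 and 542.1, a ratio of DR to WT of 0.119 (0.117 to 0.122).

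Most markers of plasma cells and of blood cells were above the median gene in both libraries, which goes against the label. The lists were chosen with earlier results of these data known, and the identity of the cells was not tested. Of 20 plasma cell genes, 17 were above the median gene in each library, their median was 297.6 CPM in DR and 221.9 in WT, and their summed level was 18800 and 14190 CPM. JCHAIN, the joining chain of secreted antibodies, had 111812 and 101680 reads and stood at 1507 and 2185 CPM per kb. IGLL5, which lies at the immunoglobulin lambda locus and can share its reads, was at 7291 and 4491 CPM per kb, and TXNDC5, a folding enzyme of the endoplasmic reticulum, was at 1049 and 718. Of 15 blood cell genes, 14 were above the median gene in each library, among them LAPTM5, ARHGDIB and CORO1A. Some listed markers were low, named after their values were seen: CD27, CD79A and FCRL5 of the plasma cell list had 137, 137 and 81 reads in DR and 78, 32 and 14 in WT, and PTPRC of the blood cell list had 105 and 52. Past the fold, 6 of the 20 plasma cell genes and 3 of the 15 blood cell genes were higher in DR and 0 lower, beside 7.47% and 4.16% of all genes tested. The largest of these differences was that of CD74, the invariant chain of antigen presentation, with a ratio of 4.34 (4.27 to 4.42). By contrast 0 of 8 fibroblast genes and 2 of 11 keratinocyte genes were above the median gene by CPM in each library. Per kb, 4 of the 11 keratinocyte genes in DR and 3 in WT were above the median. The highest of them were KRT15 at 86.4 and 88.1 CPM per kb and LAMB3 at 57.2 and 34.3. Of 8 genes of Schwann cells and glia, SOX10 among them, 2 were above the median gene in each library. NCAM1, an adhesion molecule of neural and of some blood cells, was the highest. Of 8 genes of mast cells and osteoclasts, cells that also use MITF, 0 were above it, and of the 6 tested 3 were higher in DR (KIT, OCSTAMP and MMP9). Of 4 fibroblast genes tested 3 were higher in DR (PDGFRB, COL1A1 and COL6A3), and of 10 keratinocyte genes 2 (ITGB4 and KRT17). Of 6 Schwann cell and glia genes 0 were, and none of these 4 lists had a gene past the fold downwards. Just inside the limit of 1 lay KRT5, NCAM1 and, of the blood cell list, CD48, at log2 differences of -0.997, -0.996 and -0.962. LCP1 of the blood cell list lay just inside it upwards, at 0.959. KRT5, CD48 and LCP1 were named after their values were seen. The part of these other cell types' genes in the members' values was not tested. In bulk libraries, fewer cells of a type and less RNA per cell cannot be told apart.

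**Figure D4:**
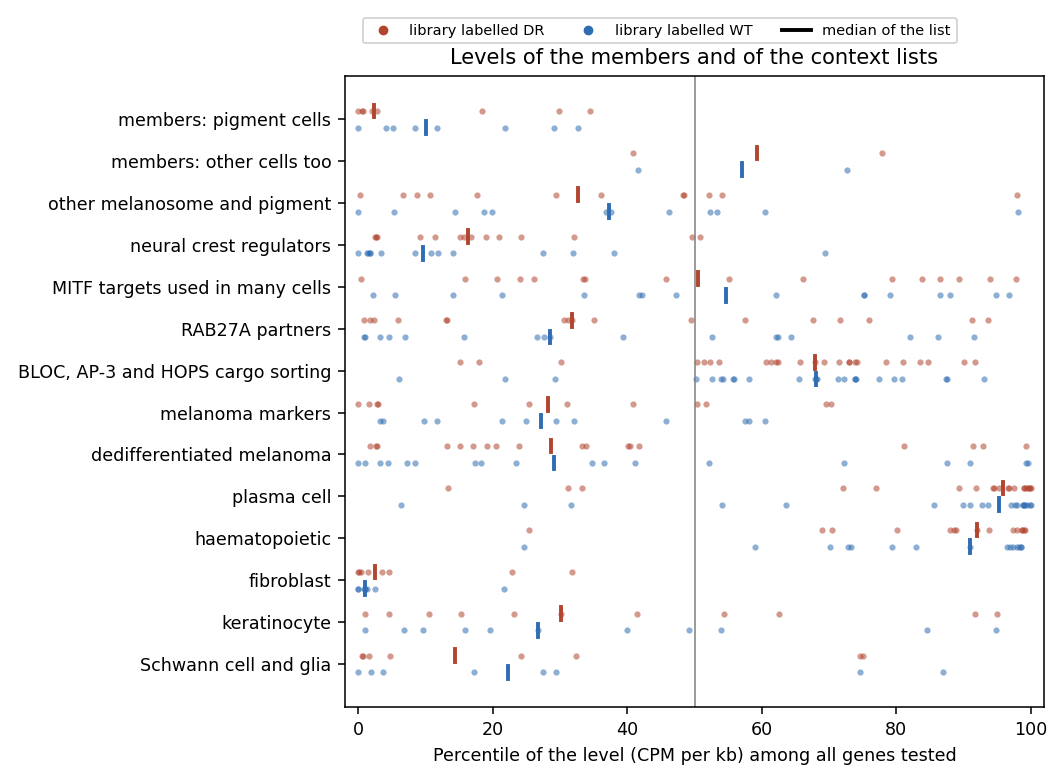
Percentile of the level (CPM per kb) among all genes tested for each member and each gene of 12 lists, with the library labelled DR in red, the library labelled WT in blue and thick marks for the median of a list. The median of the 8 pigment cell genes lies at the 2.39 percentile in DR and 10.03 in WT, that of MITF and RAB27A at 59.3 and 57.1, and that of the 20 plasma cell genes at 95.9 and 95.4. The pigment cell medians fall between genes of few reads. These are DCT (13 reads) and SLC45A2 (3) in DR, and TYRP1 (17) and SLC45A2 (5) in WT.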

How the data were processed

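RNA was taken with Trizol from cells labelled A375, and standard Illumina libraries were sequenced, 1 for each group. The authors deposited 1 table with estimated counts per gene for both libraries, gene lengths, annotation and, not used here, their log2 ratio of WT over DR, p-value, q-value and mark of direction. Of 18930 genes listed, 18267 held counts, and 9108 of these were fractional. The submitters' processing notes name Bowtie 0.12.2 and hg19 without their role, and the counting tool and annotation are not given in the sources used here. The sample descriptions name the columns and were the only tie used between samples and columns. The title of the sample labelled WT also holds the letters wt. The authors' log2 ratio was not used to check the tie.

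The estimated counts were rounded to whole reads and scaled by edgeR's TMM (edgeR 4.0.16, R 4.3.3), with Python 3.11.15, SciPy 1.17.1, NumPy 2.4.6 and pandas 2.3.3 for the rest. A minimum of 10 reads, summed over the libraries, left 16210 genes tested and 2057 not, a pseudocount of 0.5 CPM was added, and a gene was called at a log2 difference of at least 1. A percentile is the share of genes tested with a lower level. Ratios carry 95% Clopper-Pearson intervals. With 1 library per group there is no residual spread, no test was made, and the values compare 2 libraries and not 2 conditions. The calculation was tested on simulated data that held counting error only and no spread between cultures. The genes changed there had more reads than OCA2, DCT, TYRP1, SLC45A2, SOX10 or GPR143 had here. Alternatives were library totals, DESeq2 1.42.0 size factors, pseudocounts of 0.1 and 5 CPM, no filter, at least 50 reads, levels per kb, and a call only where the counting interval also passed the fold.

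The members and gene lists were chosen with earlier results of these data known. All 10 members are named. Of each list, up to 4 genes past the fold with 10 reads or more in a library and the 3 highest per kb were eligible to be named. Genes of other lists past the fold were not all described. Names were matched by NCBI Gene ID, and overlapping genes were taken from RefSeq by name.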

Additional observations from a re-analysis of the deposited data

How the results depend on the processing

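No paired analysis was possible because each group held 1 library, and for the same reason no library could be left out. The counts of members below the median gene (8 of 10 in each library) were the same under library totals, DESeq2's size factors, no filter and a minimum of 50 reads, and were 9 of 10 as CPM per kb. The count of members past the fold stayed at 0 in each direction under every alternative but 1: with a pseudocount of 0.1 CPM, 1 member, TYRP1, was called lower in DR, with a log2 difference of -2.55. With a pseudocount of 5 CPM the difference of TYRP1 shrank to -0.13 and that of PMEL to 0.36, and the genes past the fold fell from 1211 to 423 higher and from 674 to 333 lower. A larger pseudocount shrinks low genes by construction. The median difference of the members lay between -0.10 and -0.01 under all alternatives, and that of all genes tested between 0.01 and 0.04 under the 3 scalings. Counts left unrounded, an alternative added after the data were seen, changed no call. Depth limits DCT, SLC45A2, SOX10 and GPR143, for which a 2-fold difference was not detectable, and the spread between cultures is unknown for all members.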
